A study of Mus musculus with 3 samples.

Results

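miR-21a is the mouse form of miR-21, and its hairpin gives 2 mature miRNAs, mmu-miR-21a-5p and mmu-miR-21a-3p. Both were taken from the count table by their mature names, and both were present, as 2 of 627 mature miRNAs. The libraries came from ovaries of newborn CD1 mice that were cultured to postnatal day 3 with the plasticizer di (2-ethylhexyl) phthalate (DEHP) at 0, 10, or 100 μM. All 3 groups were kept in a medium with fetal bovine serum, and the control group (0 μM) was given only the vehicle, DMSO. For each concentration there was 1 library, made from many pooled whole ovaries. No test with replicates could be made, so no p-value is given. Intervals (95%) cover counting error only and leave out the variation between cultures.

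miRNAs are cut as a short duplex from a hairpin precursor, and usually one strand is loaded into an Argonaute protein while the other, the passenger strand, is degraded. The loaded strand pairs with target mRNAs mainly through its seed, bases 2 to 8, and lowers their translation and stability. In miR-21 the 5p arm is the loaded strand. It is known as an anti-apoptotic miRNA that targets the mRNA of PDCD4, an inhibitor of translation that promotes cell death. In the mouse ovary it is known to rise in granulosa cells after luteinizing hormone (LH) and to protect these cells from apoptosis. Germ cell cysts break down and primordial follicles form in the days studied here, with much germ cell death as a normal part of the process.

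The sequences below are shown because the seed decides which targets an arm can share with other miRNAs, and because the table also holds miR-21b and miR-21c, whose 5′ parts resemble miR-21a-5p. They were taken from RefSeq on GRCm38.p6, which had a mature sequence under the same name for 529 of the 627 miRNAs. Seeds are in capitals.
mmu-miR-21a-5p: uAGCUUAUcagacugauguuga
mmu-miR-21a-3p: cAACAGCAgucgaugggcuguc
mmu-miR-21b: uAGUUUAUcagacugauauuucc
mmu-miR-21c: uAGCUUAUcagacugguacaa
Among the 529 miRNAs with a sequence, only miR-21c had the seed of miR-21a-5p, and no other miRNA had the seed of miR-21a-3p. With positions counted from the 5′ end of miR-21a-5p, miR-21c differed from it by A16G, G18A, U19C, U20A and G21A, all outside the seed. miR-21b differed by C4U, which is inside the seed, and by G18A, G21U and A22C. The first 15 bases of miR-21a-5p and miR-21c are therefore identical, and the counting method for such reads was not stated. The counts of miR-21c are uncertain for this reason. Those of miR-21b, which differs from miR-21a-5p inside the seed, are uncertain because the handling of similar reads was not stated.

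The Mir21a hairpin has 92 bases and lies on the minus strand of GRCm38 chromosome 11, from 86584067 to 86584158. GENCODE M21 places it inside the last part of Vmp1, the gene of a membrane protein of autophagy, on the same strand. It lies in exon 12 of the transcript Vmp1-201, within the annotated untranslated region. The 5p arm takes bases 18 to 39 of the hairpin and the 3p arm bases 56 to 77. Each arm fills 1 row of the table.

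miR-21a-5p was the second most counted miRNA in the libraries of 0 and 10 μM DEHP and the eighth at 100 μM. It had 366192 counts at 0 μM, 380107 at 10 μM and 157310 at 100 μM. The control count made up 6.97% of all miRNA counts (Wilson interval from 6.95% to 6.99%). The share was 7.51% in the 10 μM library (from 7.48% to 7.53%) and 2.64% in the 100 μM library (from 2.63% to 2.66%). The 3 intervals did not overlap, with the 10 μM share slightly above the control and the 100 μM share far below both. miR-10b-5p was ahead of it at 0 and 10 μM with 7.59% and 9.14% of the counts. The next below it was miR-148a-3p at 0 μM (5.93%) and miR-143-3p at 10 μM (4.31%). At 100 μM its neighbours were miR-881-3p above (2.86%) and miR-379-5p below (2.53%), and the counting intervals of these neighbours did not overlap its own in any library.

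The totals behind these shares were 5253367, 5064602 and 5952274 counts at 0, 10 and 100 μM. The 10 most counted miRNAs held 45.4% of the counts at 0 μM, 45.6% at 10 μM and 70.5% at 100 μM. The sums at 0 and 10 μM include both miR-199a-3p and miR-199b-3p, which had identical counts. Since a few miRNAs took more of the 100 μM library, levels were also scaled by the median-of-ratios size factors of DESeq2, which were 1.38, 1.35 and 0.546. On this scale miR-21a-5p had a normalized count of 265717 at 0 μM, 281990 at 10 μM and 288201 at 100 μM. The order by concentration therefore differed between the scales. The share was lowest at 100 μM, while the normalized count was highest there by a small margin. That margin over 10 μM, a log2 ratio of 0.03, turned to -0.0145 with upper-quartile scaling, to -0.0122 with size factors from miRNAs of a mean of at least 100 and to -0.63 with library sizes without the 10 most abundant miRNAs.

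**Figure D1:**
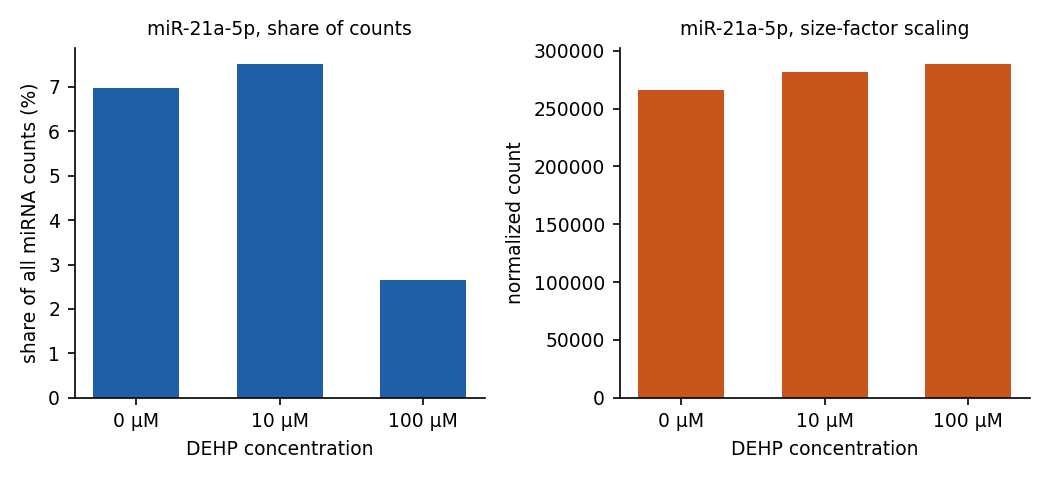
Level of miR-21a-5p in the libraries of 0, 10 and 100 μM DEHP, as a percent of all miRNA counts (left) and as normalized counts (right), with 1 library per bar. The share was 6.97% at 0 μM and 2.64% at 100 μM, while the normalized count was 265717 and 288201.

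Between 10 and 0 μM DEHP the log2 ratio of the normalized counts of miR-21a-5p, with 0.5 added, was 0.09 (exact Clopper-Pearson interval 0.08 to 0.09), or 1.06-fold. It was 0.12 (0.11 to 0.13) between 100 and 0 μM, or 1.08-fold, and 0.03 (0.02 to 0.04) between 100 and 10 μM. None of these came near a log2 ratio of 1, a change of 2-fold, which is the threshold used here for describing a miRNA as beyond the rest. A minimum of 10 on the mean normalized count left 587 miRNAs, of which 39 were beyond 1 in either direction between 10 and 0 μM (6.64%), 308 between 100 and 0 μM (52.5%) and 318 between 100 and 10 μM (54.2%). miR-21a-5p was thus within 2-fold in each comparison, as were most miRNAs at 10 μM and the smaller part of them at 100 μM.

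With scaling to total counts the log2 ratio of miR-21a-5p was 0.11 between 10 and 0 μM, -1.40 (-1.41 to -1.39) between 100 and 0 μM and -1.51 (-1.51 to -1.50) between 100 and 10 μM. As shares of the counts, miR-21a-5p was thus 2.64-fold lower at 100 μM than at 0 μM. The same scaling moved the other miRNAs as well. Across the 587 miRNAs, the median log2 ratio at 100 μM against 0 μM was -0.01 with the size factors and -1.51 with total counts. A log2 ratio beyond 1 on the scale of total counts was found for 40 miRNAs between 10 and 0 μM (6.81%), for 401 between 100 and 0 μM (68.3%) and for 400 between 100 and 10 μM (68.1%). Of the 401, 371 were lower and 30 higher, against 151 lower and 157 higher with the size factors.

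The direction for miR-21a-5p between 100 and 0 μM depended on the scaling. Its distance from the other miRNAs hardly did, because a scaling shifts the ratios of all miRNAs together. Relative to the median of all miRNAs, its log2 ratio was higher by 0.13 with the size factors, with TMM and with upper-quartile scaling, and by 0.11 with total counts. Library sizes without the 10 most abundant miRNAs gave a log2 ratio of -0.51, which was 0.12 above the median of all miRNAs. The absolute ratio with TMM was 0.20 and with the upper quartile 0.13. Between 10 and 0 μM each of these scalings gave a ratio from 0.09 to 0.15. Size factors taken only from miRNAs with a mean of at least 100 gave 0.018 between 10 and 0 μM and 0.0054 between 100 and 0 μM.

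**Figure D2:**
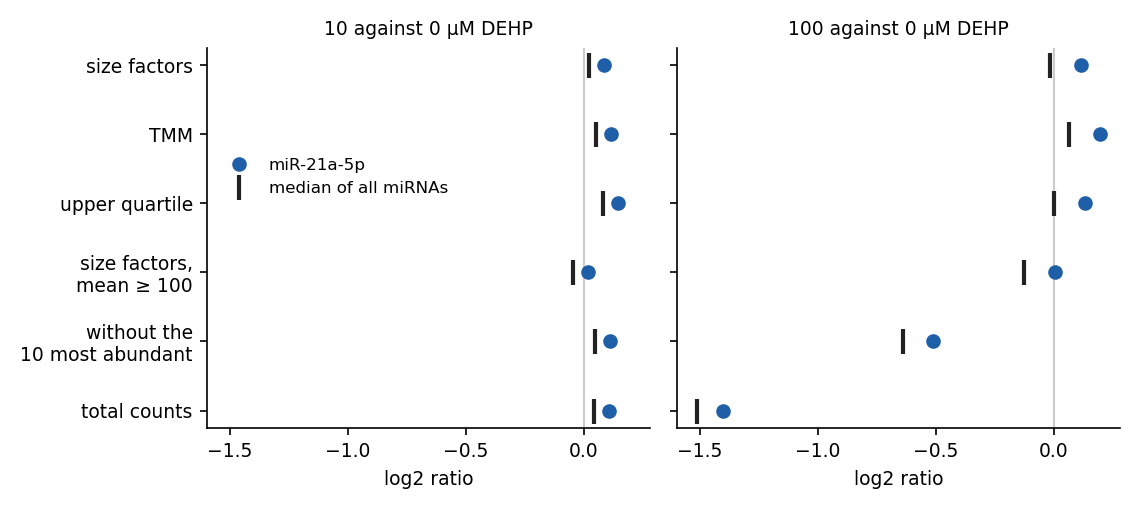
Log2 ratio of miR-21a-5p (points) and the median log2 ratio of all 587 miRNAs (bars) under 6 scalings of the libraries, for 10 against 0 μM DEHP (left) and 100 against 0 μM (right). At 100 μM the point moved from 0.12 with the size factors to -1.40 with total counts, and the median moved with it from -0.01 to -1.51.

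Its place among the other miRNAs, which a common scaling changes little, was near the middle in each comparison. With the size factors, 337 of the 586 other miRNAs (57.5%) had a lower log2 ratio than miR-21a-5p between 10 and 0 μM, 313 (53.4%) between 100 and 0 μM and 302 (51.5%) between 100 and 10 μM. Among the 20 most counted miRNAs of the 0 μM library its place was lower at 100 μM, since 12 of the 19 others had a higher ratio and 7 a lower one. The 12 include miR-199a-3p and miR-199b-3p, which had identical counts in each library and a ratio of 0.14. The median of these 19 was 0.41 between 100 and 0 μM, with a range from -1.34 for miR-99a-5p to 3.33 for miR-148a-3p. Between 10 and 0 μM, 11 of the 19 were lower than miR-21a-5p and 8 higher, with a median of 0.03.

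**Figure D3:**
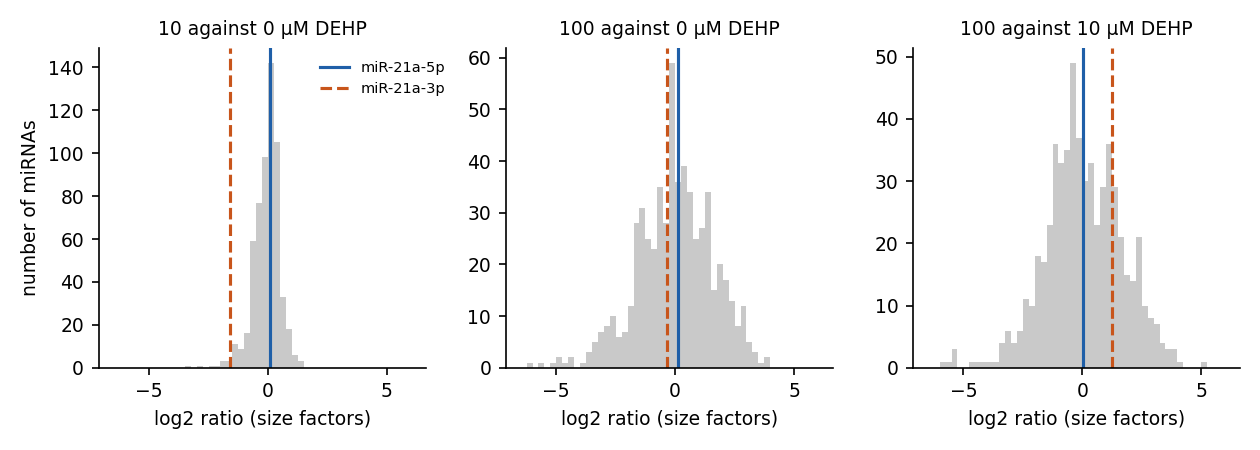
Number of miRNAs (of 587) by log2 ratio of normalized counts in the 3 comparisons, with miR-21a-5p as a solid line and miR-21a-3p as a dashed line. miR-21a-5p lay near the centre in each panel (0.09, 0.12 and 0.03), while miR-21a-3p lay at -1.59 between 10 and 0 μM, in the lower tail.

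miR-21a-3p, the passenger strand of the same hairpin, was close to the lowest level that the table holds. It had 26 counts at 0 μM (exact Poisson interval 17.0 to 38.1) and 8 in each of the DEHP libraries (3.45 to 15.8). The control library was the highest and the 2 DEHP libraries were equal in counts, and the interval at 0 μM did not overlap the others. Its rank was 517, 601 and 518 of 627. Its mean normalized count was 13.2, which passed the minimum of 10.

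The normalized count of miR-21a-3p was 18.9 in the control (12.3 to 27.6), 5.93 after 10 μM DEHP (2.56 to 11.7) and 14.7 after 100 μM (6.33 to 28.9). After scaling, the 100 μM value thus lay between the others and its interval overlapped both. The log2 ratio between 10 and 0 μM was -1.59 (-3.02 to -0.48), beyond 1 and with an interval below 0. It was -0.35 (-1.72 to 0.82) between 100 and 0 μM and 1.24 (-0.31 to 2.92) between 100 and 10 μM, and both of these intervals held 0. With total counts these ratios were -1.59 (with an interval up to -0.46), -1.81 (-3.23 to -0.70) and -0.22 (-1.84 to 1.38). The lower value at 10 than at 0 μM was therefore beyond counting error under both scalings, which hardly differ between these 2 libraries. The value at 100 μM was below 0 μM beyond counting error with total counts only.

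Between 10 and 0 μM, 7 of the 586 other miRNAs had a lower log2 ratio than miR-21a-3p. No miRNA of the table had fewer than 10 counts in the control library, whereas the lowest counts in the libraries of 10 and 100 μM DEHP were 2 and 0. The table thus holds miRNAs with fewer than 10 counts after DEHP but none with fewer than 10 in the control. Among 167 other miRNAs with 10 to 50 counts at 0 μM, 23 were below -1 and 5 above 1 between 10 and 0 μM. For these reasons nothing is read from the place of miR-21a-3p among low-count miRNAs.

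**Figure D4:**
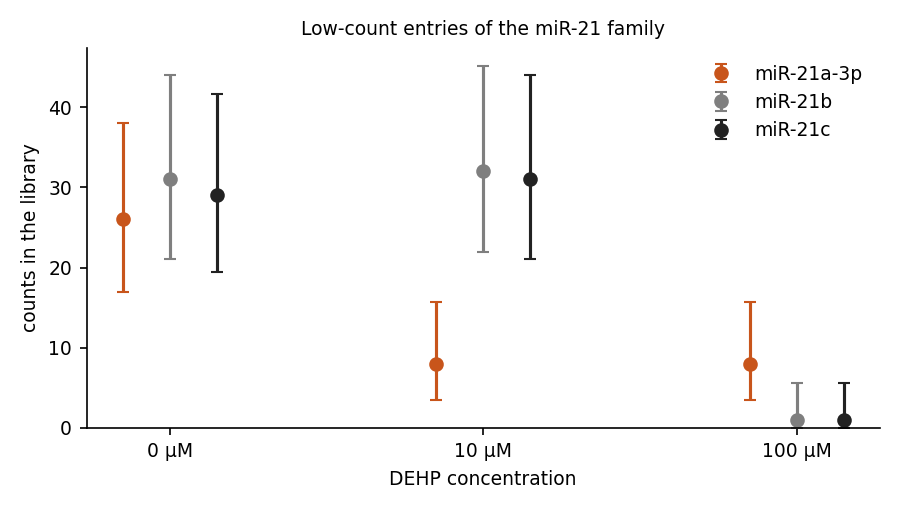
Counts of miR-21a-3p, miR-21b and miR-21c in the libraries of 0, 10 and 100 μM DEHP, with exact Poisson 95% intervals as bars. miR-21a-3p was at 26, 8 and 8 counts, whereas miR-21b and miR-21c were near 30 at 0 and 10 μM and at 1 count at 100 μM.

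The similar miRNAs miR-21b and miR-21c had few counts too, but their pattern was not that of miR-21a-3p. miR-21b, encoded on chromosome 3, had 31 counts at 0 μM, 32 at 10 μM and 1 at 100 μM. miR-21c, encoded on chromosome 8, had 29, 31 and 1 counts. For each 100000 counts of miR-21a-5p there were 8.47, 8.42 and 0.636 counts of miR-21b at 0, 10 and 100 μM, and 7.92, 8.16 and 0.636 counts of miR-21c. Both thus kept nearly the same proportion to miR-21a-5p at 0 and 10 μM and a lower one at 100 μM. The counts of miR-21b and miR-21c were nearly equal in each library, and whether they share reads was not tested. The log2 ratio between 100 and 0 μM with the size factors was -3.30 (-8.97 to -1.03) for miR-21b and -3.21 (-8.87 to -0.93) for miR-21c.

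The ratio of the 2 arms of miR-21a does not depend on the scaling of the libraries. At 0 μM there were 14084 counts of the 5p arm for each count of the 3p arm (Clopper-Pearson interval 9612 to 21561). The number was 47513 after 10 μM DEHP (24113 to 110055) and 19664 after 100 μM (9979 to 45547). The ratio was highest at 10 μM, where its interval did not overlap that of the control, whereas the interval at 100 μM overlapped both. In other words, the 3p arm gave 7.10, 2.10 and 5.09 of each 100000 miR-21a counts.

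Both arms passed the minimum for 174 hairpins whose arms had the same name apart from 5p and 3p. miR-21a had the largest difference between its arms of all of them in each library. The minimum leaves out hairpins whose weaker arm has a mean normalized count below 10. Arms with differently numbered names, such as let-7a-5p and let-7a-1-3p, and arms without a partner in the table were also left out. This place thus holds only among the 174. Of those left out, miR-100 had 69726 counts of 5p and 1 of 3p at 100 μM, a larger ratio than that of miR-21a. With 0.5 counts added to each arm, the log2 ratio of 5p to 3p of miR-21a was 13.75 in the control, 15.45 after 10 μM DEHP and 14.18 after 100 μM. The second was miR-99a at 0 μM (10.94) and 10 μM (12.01). At 0 and 10 μM the counting intervals of miR-21a and miR-99a were apart. However, let-7g, which the minimum left out, had 158793 counts of 5p and 18 of 3p at 0 μM, and 158248 and 5 at 10 μM. The ratio of let-7g was thus closer to that of miR-21a than the ratio of miR-99a was. At 100 μM the second was let-7i at 14.10, with 219064 counts of 5p and 12 of 3p, and its interval of 13.35 to 15.11 overlapped that of miR-21a (13.28 to 15.48). The median difference between arms in either direction was 3.19, 3.10 and 3.66 on the log2 scale, and the 5p arm was the higher one in 85, 87 and 85 of the 174 hairpins.

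The log2 change of the arm ratio of miR-21a was 1.69 between 10 and 0 μM (exact conditional interval 0.57 to 3.11), toward 5p. It was 0.42 (-0.70 to 1.84) between 100 and 0 μM and -1.27 (-2.88 to 0.34) between 100 and 10 μM. Across the 174 hairpins the arm ratio changed by more than 1 on the log2 scale in 31 between 10 and 0 μM (17.8%), in 114 between 100 and 0 μM (65.5%) and in 121 between 100 and 10 μM (69.5%). At 10 μM, 3 hairpins had a larger change than miR-21a. At 100 μM against 0 μM, 148 did, and the median change in either direction was 1.48. The change at 10 μM rests on the 26 and 8 counts of the 3p arm, as the 5p arm differed by 0.09. No miRNA of the table had fewer than 10 counts at 0 μM, while lower counts were kept at 10 μM. Nothing is therefore read from the place of this change among the 174 hairpins.

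**Figure D5:**
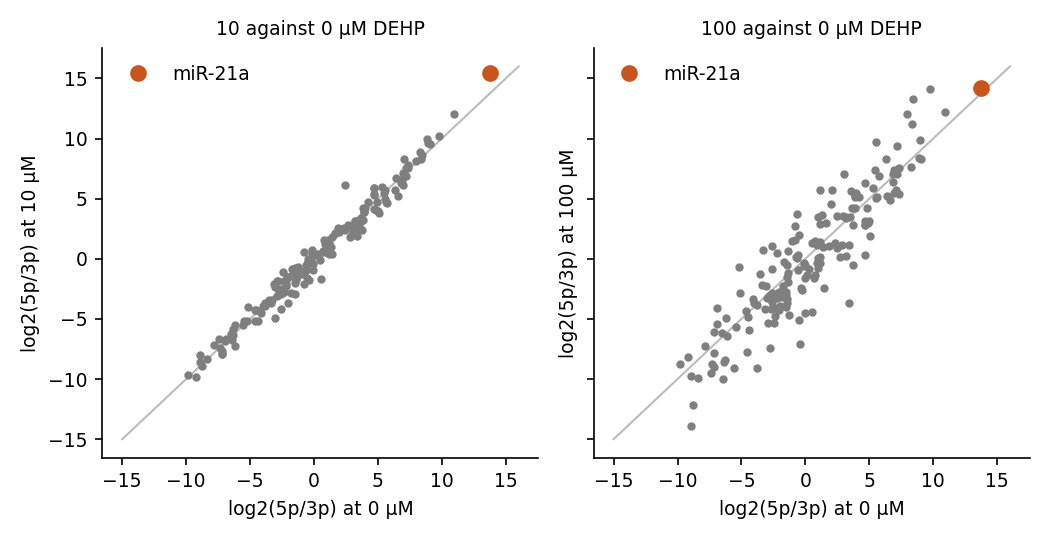
Log2 ratio of 5p to 3p counts for 174 hairpins, at 10 μM against 0 μM DEHP (left) and at 100 μM against 0 μM (right), with the line of equal values. miR-21a (large point) had the highest ratio of these 174 hairpins in each library, at 13.75, 15.45 and 14.18. It lay above the line in both panels, by 1.69 at 10 μM and by 0.42 at 100 μM (interval -0.70 to 1.84). Its 3p arm had 26, 8 and 8 counts.

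Among miRNAs that reached a mean of 100 normalized counts, the patterns most like that of miR-21a-5p were those of miR-676-5p, miR-196a-5p and miR-672-5p. Likeness was taken as the Euclidean distance between the pairs of log2 ratios to 0 μM (10 and 100 μM), over 3 libraries and 373 miRNAs. The distances were 0.01, 0.08 and 0.12. miR-676-5p had 197, 205 and 84 counts, so its close match carries a wide counting error. For miR-21a-3p the nearest of 374 miRNAs were miR-341-3p (0.30), miR-324-5p (0.55) and miR-326-3p (0.57). The pattern of miR-21a-3p rests on 26, 8 and 8 counts. The ratios of these nearest miRNAs lie within its counting intervals, so nothing is read from their order. miR-341-3p had 3964 counts at 0 μM, 1497 at 10 μM and 1417 at 100 μM.

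miR-132-3p and miR-212-3p are, like miR-21, known to rise in mouse granulosa cells after LH. miR-132-3p had 923, 1239 and 995 counts at 0, 10 and 100 μM, with a log2 ratio of 0.46 at 10 μM and 1.44 at 100 μM against 0 μM with the size factors. With total counts its ratio at 100 μM was -0.07. miR-212-3p had 113, 156 and 35 counts, with ratios of 0.49 at 10 μM and -0.35 at 100 μM, the latter being -1.85 with total counts. At 100 μM against 0 μM, miR-132-3p was thus above miR-21a-5p and miR-212-3p below it.

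In 9 other miRNAs linked to survival or death of granulosa cells, 1 was above 1 and 3 were below -1 between 100 and 0 μM with the size factors, and 0 were beyond 1 between 10 and 0 μM. Among all 587 miRNAs, 52.5% were beyond 1 at 100 μM and 6.64% at 10 μM. With total counts, 0 of the 9 were above 1 and 6 were below -1 between 100 and 0 μM, where 68.3% of all miRNAs were beyond 1. The median was -0.53 with the size factors and -2.05 with total counts at 100 μM, and 0.10 with the size factors at 10 μM. miR-26b-5p had the highest ratio (1.34). miR-34a-5p, a target of p53 that promotes apoptosis, had the lowest (-2.38), with 832, 663 and 63 counts. let-7g-5p, the most counted of the 9, had 158793, 158248 and 91731 counts and a ratio of 0.54. The other 6 (miR-22-3p, miR-23a-3p, miR-27a-3p, miR-92a-3p, miR-145a-5p and miR-146a-5p) went from -1.21 to 0.77.

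miR-21 is made in many cell types, so marker miRNAs of the cells in a cultured ovary were set beside it. In bulk libraries, fewer cells of a type and less RNA per cell cannot be told apart. The gonadal miR-202-5p and miR-202-3p were present, with 41367 and 1614 counts at 0 μM. Their summed share was 0.818%, 1.07% and 0.183% at 0, 10 and 100 μM. The 5 germ cell miRNAs, each a 3p arm of the miR-290 cluster, had between 408 and 1509 counts at 0 μM. Markers of leukocytes (5 of 5 in the table) summed to 0.00994%, 0.00890% and 0.00252% of the counts at 0, 10 and 100 μM, and markers of red blood cells (3 of 3) to 0.0249%, 0.0269% and 0.00766%. Endothelial miR-126a-3p and miR-126a-5p summed to 1.21%, 1.39% and 0.0904%, with log2 ratios of -2.12 and -3.12 between 100 and 0 μM with the size factors. The 5 markers of stroma and smooth muscle summed to 10.8%, 9.76% and 9.84%, the 5 of epithelium to 0.177%, 0.189% and 0.0566%, and the 5 of germ cells to 0.0680%, 0.0498% and 0.0504%. Every one of these marker lists had a lower share at 100 than at 0 μM, as had miR-21a-5p, on a scale where the median of all 587 miRNAs was -1.51, and no marker was at 0. With the size factors, the median log2 ratio between 100 and 0 μM was -0.15 for leukocyte markers (from -1.98 to 0.38). For germ cell markers, which are 3p arms only, it was 0.97 (-0.17 to 2.70). In the same comparison, 5p arms of the miR-290 cluster that passed the minimum were at 2.93 (miR-292a-5p), -0.11 (miR-291a-5p), -0.69 (miR-290a-5p) and -1.44 (miR-293-5p). Members of other lists went in both directions, from -1.20 for miR-145a-5p to 1.92 for miR-143-3p among stromal markers (median 0.14) and up to 1.13 for miR-200c-3p among epithelial markers (median 0.09), of which miR-141-3p was the lowest, with 157 counts at 0 μM and 1 at 100 μM. The gonadal miR-202-3p was at 0.78 and miR-202-5p at -0.74. Of the red blood cell markers, miR-451a was at -0.27 and miR-486a-5p at -0.16, while miR-144-3p, with 16, 3 and 2 counts, did not pass the minimum. The part of cell composition in the levels of miR-21a was not tested. With 1 library for each concentration, DEHP and the preparation of the library cannot be told apart.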

How the data were processed

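Small RNA of cultured mouse ovaries was measured in 3 libraries, 1 for each DEHP concentration. The authors trimmed linkers and reads of low quality, aligned the rest to the mouse genome (bowtie2) and quantified miRNAs (miRDeep2). They deposited whole-number counts per mature miRNA, not normalized, with mm10 among the submitters' processing notes. Tool versions and the miRBase release were not given in the sources used here. The table has 961 rows. For the 79 IDs with several rows, only the most counted row was kept, giving 627 miRNAs. Some miRNAs of different names had identical counts in every library, such as miR-199a-3p and miR-199b-3p, and each was kept and entered the totals. Columns were matched to concentrations by their titles.

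Size factors were computed with DESeq2 1.42.0, and those of TMM and the upper quartile with edgeR 4.0.16, in R 4.3.3. Intervals used scipy 1.17.1. Log2 ratios had 0.5 normalized counts added and were described against the 587 miRNAs whose mean normalized count reached 10. The script was tested on simulated data. Since PCR reads carry no molecular identifiers, they cannot be taken as separate molecules, and intervals cover counting error only. A count of 3, the limit that 0 counts allow, corresponds to 2.18, 2.23 and 5.50 normalized counts at 0, 10 and 100 μM. Named miRNAs were both arms, other miR-21 entries, miRNAs sharing a seed, neighbours by count, the 3 nearest patterns, and lists of LH-responsive, granulosa and cell type miRNAs. Another list is not reported here. Members and lists were chosen with earlier results of these data known. Alternatives were other scalings, minimums, added counts and summed rows.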

Additional observations from a re-analysis of the deposited data

How the results depend on the processing

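No paired analysis was possible because there was 1 library per concentration, which also left no replicate to leave out. For miR-21a-5p the log2 ratio between 10 and 0 μM, 0.09 with the size factors, was 0.11 with total counts, 0.12 with TMM, 0.15 with the upper quartile, 0.11 without the 10 most abundant miRNAs and 0.0175 with size factors from miRNAs of a mean of at least 100. Between 100 and 0 μM, 0.12 became -1.40, 0.20, 0.13, -0.51 and 0.00537 in the same order. Between 100 and 10 μM, 0.03 became -1.51, 0.0787, -0.0145, -0.63 and -0.0122, so 4 of these 5 scalings turned its sign. For miR-21a-3p, total counts gave -1.81 between 100 and 0 μM and turned its ratio between 100 and 10 μM to -0.22. Each scaling shifts the ratios of all miRNAs together. Adding 1 normalized count or summing rows kept each ratio of both arms within its counting interval, as did leaving out the 0.5 counts in the arm ratio, an alternative chosen after seeing the data. Over all rows of the table miR-21a-5p held 5.29%, 5.47% and 2.30% of the counts at 0, 10 and 100 μM, and relative to the counts outside the 10 most abundant miRNAs 12.8%, 13.8% and 8.95%, since the total changes. With a mean of at least 100, 17, 198 and 214 of 374 miRNAs were beyond 1 (10 against 0, 100 against 0 and 100 against 10 μM), against 39, 308 and 318 of 587, and 14, 66 and 68 of 92 hairpins changed their arm ratio beyond 1, against 31, 114 and 121 of 174, as fewer miRNAs were counted. Depth limits the low-count entries, as miR-21a-3p had 8 counts at 10 and 100 μM, and miR-21b and miR-21c had 1 count at 100 μM, where their counting intervals were wider still.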
